A study of Homo sapiens with 6 samples.

Results

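MET, the TAM receptors AXL, TYRO3 and MERTK, and the FGF receptors FGFR1 to FGFR4 were examined together with the ligands GAS6 and FGF2 in H1975 cells before and after exposure to Osi (osimertinib), an inhibitor of the epidermal growth factor receptor (EGFR). The 10 genes were taken by symbol from the deposited expression matrix, which has 27216 rows, and all 10 were found in it. H1975 is an established human non-small cell lung cancer line with a mutated, active EGFR, and the labels give its genotype as WT. RNA was sequenced from 3 parental samples, labelled Osimertinib (1000nM) for 0 hours, and 3 adapted samples, labelled Osimertinib (1000nM) for 72 hours. The parental columns of the matrix are headed DMSO, and whether those cells were untreated or kept in solvent, and for how long, is not stated, so drug and time in culture cannot be told apart. Apoptotic cells were rinsed off before the adapted samples were lysed, which leaves a surviving population of 1 cell line, and the labels do not say whether replicates were separate cultures, so that p-values measure only the spread between these samples. The labels mention sequencing of circular RNA and a digestion with RNase R, which degrades linear RNA. The paper's methods for these libraries mention neither and name total RNA. Which of these applies to this matrix is not settled, so the values are read as gene levels with that limit.

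Receptor tyrosine kinases span the cell membrane, bind a ligand outside and phosphorylate tyrosines inside, and most of them feed the same RAS-ERK and PI3K-AKT cascades that EGFR drives. A receptor that keeps these cascades on while EGFR is blocked is called a bypass receptor, and MET, AXL and FGFR1 are the textbook cases in EGFR-mutant lung cancer. MET binds hepatocyte growth factor (HGF). All TAM receptors bind GAS6, and TYRO3 and MERTK also bind protein S (PROS1). Both ligands are matured by a vitamin K dependent enzyme. The FGF receptors bind fibroblast growth factors held on heparan sulfate chains, and FGF2 is a ligand of broad receptor range.

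Values are taken as log2(FPKM + 1), with FPKM a level per transcript length and library size. The authors do not name the unit. The log2 and the added 1 were read from the values, while FPKM was assumed, and comparisons of level between genes rest on it. Rows with a mean of at least 1 over the 6 samples were compared with limma, and a row rose or fell where its adjusted p was under 0.05. Of the 10 genes, 9 passed this filter and 1, FGFR2 (mean 0.90), did not. Of the 9, GAS6, AXL, FGFR3, TYRO3 and MERTK rose and MET, FGFR4 and FGFR1 fell in adapted cells, while FGF2 was not past the threshold. That 8 of 9 were past it has to be read against a share of 56.9% over all 12656 tested rows, of which 30.7% rose and 26.2% fell. GAS6 and AXL had parental means under 1 and passed the filter only through their adapted values, so their calls were favoured by it. In limma without a filter, their adjusted p-values were 2.65e-04 and 0.00264. The 3 values of each group did not overlap in 8 of the 9 tested genes, against 66.3% of tested rows (35.7% higher and 30.6% lower in adapted cells), nor in FGFR2. In these bulk samples, a loss of cells of 1 kind and less RNA per cell cannot be told apart. With 3 samples against 3, a two-sided exact permutation test cannot give a p below 0.1, and it gave 0.1 for each of these genes and 0.2 for FGF2.

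The adapted samples were less alike than the parental ones, with correlations across tested rows of 0.977 to 0.992 against 0.995 to 0.996, and genes are not independent replicates. Adapted replicate 1 stood apart. It was the adapted sample nearest to the parental mean in 54.8% of the 7202 rows past the threshold, against 21.4% for replicate 2 and 23.8% for replicate 3. The epithelial genes EPCAM, CDH1, KRT7, KRT8, KRT18, KRT19, ELF3 and NKX2-1 averaged 5.24 (NKX2-1) to 9.93 (KRT7) over the 6 samples, and the surfactant genes SFTPB and SFTPC at most 0.23 in either group. NAPSA averaged 6.69 in parental and 5.88 in adapted cells (adjusted p = 0.00474 in limma). FOXA2, which was below the filter, averaged 1.42 and 0.28 (adjusted p = 2.24e-04 in limma without a filter). Of the 9 epithelial and lung markers tested, 2 rose and 5 fell, where 30.7% of all tested rows rose and 26.2% fell. Summed over 8 fibroblast markers the level was 3.04 to 3.17 FPKM in parental and 8.60 to 9.33 in adapted samples, most of it COL1A1 (which rose by 1.12 on the log2 scale), while COL3A1 was 1.37 in adapted replicate 1 and at most 0.17 in the other samples, LUM was 0.06, 0.04 and 0.06 and then 0.73, 0.53 and 0.57, and COL1A2, DCN, PDGFRA, PDGFRB and THY1 averaged at most 0.05 on the log2 scale in both groups. Summed over 8 blood cell markers it was 74.6 to 76.9 and 14.8 to 29.8 FPKM, nearly all of it CD68, while CD3E, HBA1 and HBB were listed at 0 in all samples and PTPRC averaged at most 0.04. The 6 endothelial markers, none of which passed the filter, summed to 1.18 to 1.89 and 1.53 to 3.50 FPKM. Among them CDH5 averaged 0.21 in parental and 1.71 in adapted cells (adjusted p = 0.00375 in limma without a filter) and PECAM1 1.22 and 0.09 (6.91e-04), while CLDN5, KDR, TIE1 and VWF averaged at most 0.24. The part of these markers in the results was not tested.

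**Figure D1:**
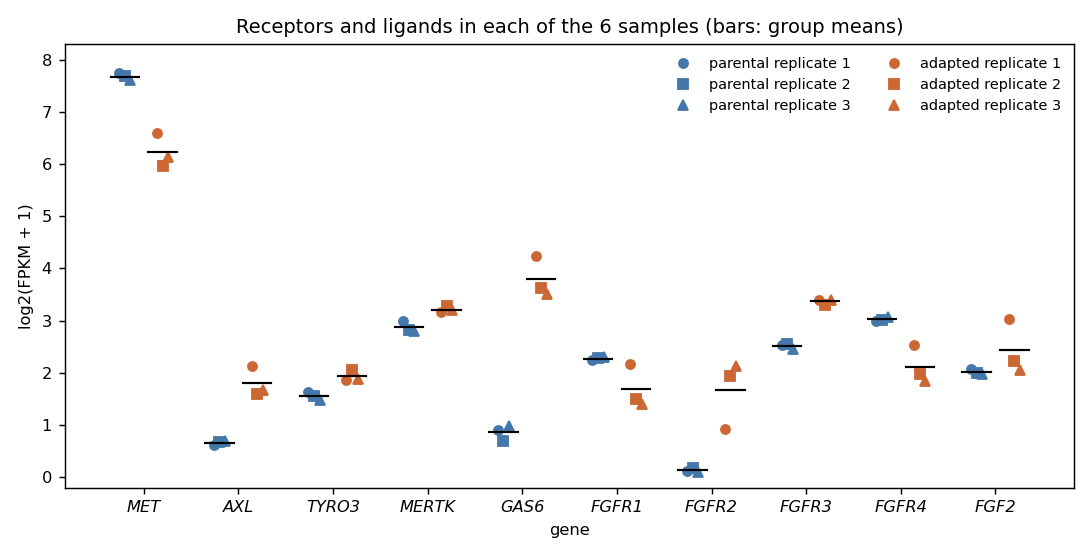
Level of each gene in each of the 6 samples, as log2(FPKM + 1) on a linear axis, with parental samples in blue, adapted samples in orange, a marker shape for each replicate number and a bar at each group mean. MET falls from a mean of 7.67 to 6.23, GAS6 rises from 0.86 to 3.80, and adapted replicate 1 (circles) is the adapted sample farthest from the other adapted ones in MET, AXL, GAS6, FGFR1, FGFR2, FGFR4 and FGF2.

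The promoters of several of these genes are shown because ERK and HIPPO signaling end at AP-1 and TEAD factors, whose binding letters can be looked up in them. RefSeq (GRCh38.p14) gave 16 annotated starts for 9 of the genes. Each run is the 250 bases before a start, 5′ to 3′ on the strand of the gene, with AP-1 letters (TGANTCA) or TEAD letters (GGAATG, or CATTCC on the other strand) in capitals. MET and GAS6 are the tested genes that fell and rose most on the log2(FPKM + 1) scale, and their runs hold neither motif. The AXL run belongs to 1 of its 2 starts and the FGFR2 run to 1 of its 5, and both hold a TEAD match. Both runs lie inside the annotated gene. The other AXL start (chr19:41218973-41219222) holds neither motif in its 250 bases. The same is true of the FGFR2 start at the 5′ end of the gene (chr10:121598445-121598694). The TYRO3 run belongs to 1 of its 2 starts and holds an AP-1 match, and its other start holds neither motif.
MET, chr7:116671946-116672195, plus strand: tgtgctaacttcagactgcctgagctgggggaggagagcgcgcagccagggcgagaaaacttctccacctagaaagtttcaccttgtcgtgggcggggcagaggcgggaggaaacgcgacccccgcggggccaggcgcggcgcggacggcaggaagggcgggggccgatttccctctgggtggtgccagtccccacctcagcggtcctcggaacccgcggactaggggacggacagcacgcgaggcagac
GAS6, chr13:113864077-113864326, minus strand: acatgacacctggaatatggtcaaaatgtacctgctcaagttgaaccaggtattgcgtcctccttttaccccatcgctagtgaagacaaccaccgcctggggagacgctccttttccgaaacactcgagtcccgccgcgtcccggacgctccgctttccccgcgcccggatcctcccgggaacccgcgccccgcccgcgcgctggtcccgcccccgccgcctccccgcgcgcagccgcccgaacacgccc
AXL, chr19:41226505-41226754, plus strand: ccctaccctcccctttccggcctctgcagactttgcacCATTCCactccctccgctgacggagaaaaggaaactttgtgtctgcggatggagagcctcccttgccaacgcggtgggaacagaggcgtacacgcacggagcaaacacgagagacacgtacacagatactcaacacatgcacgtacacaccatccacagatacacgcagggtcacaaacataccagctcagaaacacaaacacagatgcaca
TYRO3, chr15:41558962-41559211, plus strand: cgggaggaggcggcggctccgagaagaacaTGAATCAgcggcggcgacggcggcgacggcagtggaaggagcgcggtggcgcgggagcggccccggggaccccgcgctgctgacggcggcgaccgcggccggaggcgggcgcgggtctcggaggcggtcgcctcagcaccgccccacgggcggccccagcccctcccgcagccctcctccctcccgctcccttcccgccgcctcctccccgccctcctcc
FGFR2, chr10:121596646-121596895, minus strand: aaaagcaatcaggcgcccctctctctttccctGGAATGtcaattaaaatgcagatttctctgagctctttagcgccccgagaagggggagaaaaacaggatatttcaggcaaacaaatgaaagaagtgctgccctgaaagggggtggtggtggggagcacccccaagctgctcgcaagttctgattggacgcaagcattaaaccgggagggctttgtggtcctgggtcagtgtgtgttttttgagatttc

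In windows of 300 bases, 250 before and 50 after each start, a TEAD match was found at 4 of the 16 starts, in AXL, FGFR2 (2 of its 5 starts) and FGFR4, and an AP-1 match at 1, in TYRO3. Among all 35097 RefSeq promoters of that length, 14% held the TEAD letters and 7.71% the AP-1 letters. A match describes the letters and is not evidence of a bound factor, and the matrix does not say which start was used.

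MET, the HGF receptor, was by far the highest of the 10 genes in both groups. Its log2(FPKM + 1) was 7.74, 7.68 and 7.61 in the parental samples and 6.60, 5.97 and 6.13 in the adapted samples. All 3 adapted values lay below all 3 parental values, and adapted replicate 1 was the closest to them. The log2 fold change was -1.44 (standard error 0.15, 95% interval -1.80 to -1.08, limma, adjusted p = 2.19e-04), and 339 of the tested rows (2.68%) fell by more. In FPKM, MET went from 203 ± 9.08 to 75.6 ± 18.1 (SD, n = 3 each), a mean 2.69-fold lower. MET lies on chromosome 7 from 116672390 to 116798386 in GENCODE v29 (GRCh38), which matches the hg38 build of the submitters' processing notes. Among the 58 receptor tyrosine kinases in the matrix, MET ranked second in parental cells after EGFR. In adapted cells it ranked behind EGFR and DDR1, a collagen receptor, although the adapted values of DDR1 (6.08, 6.37 and 6.35) overlapped those of MET. EGFR itself, the target of Osi, was 9.08, 9.09 and 9.02 in parental and 9.05, 9.08 and 9.06 in adapted samples, a difference of 0.00 with a 95% interval of -0.15 to 0.16.

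The genes around MET moved both ways. Of 26 genes of the HGF-MET axis, chosen by hand for their role, 21 passed the filter, 6 rose and 6 fell, beside the 56.9% of all tested rows that were past the threshold, and their median log2 fold change was 0.06 against 0.03 over all tested rows. HGF, the ligand, did not pass the filter. Its values were 1.10, 1.14 and 0.78 in parental and 0.36, 0.62 and 1.01 in adapted samples, which overlap. MST1R (RON), the sister receptor of MET, fell from 3.47 ± 0.03 to 2.56 ± 0.15 (SD, n = 3 each), a log2 difference of -0.91 (adjusted p in limma 1.43e-04). GAB1, the docking protein that MET phosphorylates, fell by 0.76 on the log2 scale (adjusted p = 0.00103). CD44, a coreceptor for HGF, was 7.43, 7.26 and 7.14 and then 7.03, 6.11 and 5.95, with adapted replicate 1 just below the parental range, and fell by 0.91 (adjusted p = 0.0206). TMPRSS2, a membrane serine protease, rose most on this list, with 1.13, 1.14 and 1.09 in parental and 2.59, 3.95 and 4.05 in adapted samples (log2 fold change 2.41, adjusted p = 0.00103). PLXNB1, a semaphorin receptor that binds MET, rose by 0.98 (adjusted p = 1.23e-04). Of the ubiquitin ligases that send active receptors to degradation, CBLB rose by 0.88 (adjusted p = 0.00368, with adapted replicate 1 the lowest of its group) and CBL changed by -0.45 (adjusted p = 7.39e-04). Of the other proteases on the list, PLAU (urokinase) fell by 0.66 (adjusted p = 0.0081), while ST14, TMPRSS13 and HPN were not past the threshold, with log2 fold changes of -0.12, 0.05 and 0.41. The protease inhibitors SPINT1 and SPINT2, which control HGF activation, were not past it either, at 0.03 and 0.09.

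GAS6, the ligand of all 3 TAM receptors, rose most of the 9 tested genes on the log2(FPKM + 1) scale. It was 0.90, 0.69 and 0.99 in the parental and 4.24, 3.63 and 3.52 in the adapted samples. Every adapted value was more than 2 units above every parental value, and adapted replicate 1 was the highest. The log2 fold change was 2.94 (standard error 0.19, 95% interval 2.49 to 3.38, limma, adjusted p = 2.75e-05), and 35 of the tested rows rose by more. In FPKM it went from 0.822 ± 0.19 to 13.3 ± 4.06 (SD, n = 3 each), a mean 16.1-fold higher, where the log2(FPKM + 1) scale understates the change of a gene this low at the start. GAS6 lies on chromosome 13 from 113820549 to 113864067, and 7.01% of its annotated exonic bases are shared with the antisense gene GAS6-AS1, whose reads cannot be told apart without strand. PROS1, the ligand of TYRO3 and MERTK, was already well above it in parental cells, at 3.82, 3.78 and 3.78, and reached 5.09, 5.29 and 5.04 in adapted cells (log2 fold change 1.35, adjusted p = 1.61e-05). In FPKM, the ratio of GAS6 to PROS1 was 0.0639 ± 0.0148 in the parental group and 0.389 ± 0.133 in the adapted group (SD, n = 3 each), so PROS1 stayed the higher of the 2 ligands in every sample.

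**Figure D2:**
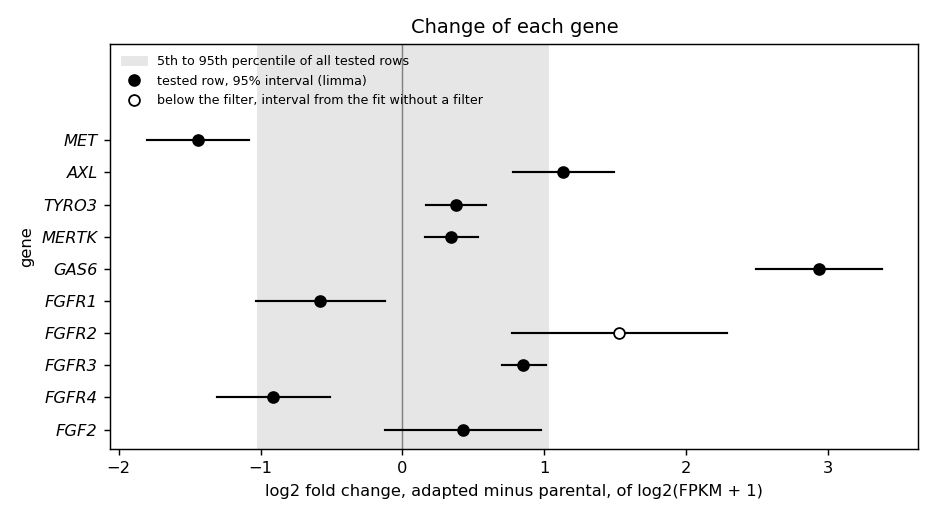
Log2 fold change, adapted minus parental, of each gene with its 95% interval (filled points, limma on the tested rows), over a grey band from the 5th to the 95th percentile of all tested rows (-1.02 to 1.03). MET lies below the band, GAS6 and AXL lie above it, the interval of FGF2 spans 0, and FGFR2 (open point) was below the filter, so that its interval comes from a fit without one.

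All 3 TAM receptors rose, AXL the most. AXL, a receptor often tied to EGFR inhibitor tolerance, was 0.62, 0.67 and 0.70 in parental and 2.14, 1.59 and 1.67 in adapted samples. The groups were well apart, with the highest value again in adapted replicate 1. Its log2 fold change was 1.13 (standard error 0.15, 95% interval 0.78 to 1.49, limma, adjusted p = 6.29e-04), and in FPKM it went from 0.586 ± 0.0442 to 2.53 ± 0.769 (SD, n = 3 each). With a pseudocount of 0.1 in place of 1, which weighs low values more, the log2 fold change of AXL was 1.91 (adjusted p = 3.64e-04). That fit used the same filtered rows, so it is not separate support. Without a filter, the adjusted p of AXL was 0.00264. TYRO3 was 1.63, 1.56 and 1.48 and then 1.86, 2.05 and 1.89, a log2 fold change of 0.38 (95% interval 0.17 to 0.59, adjusted p = 0.00904). MERTK, known mainly for the clearance of dying cells by macrophages, was 2.99, 2.82 and 2.80 and then 3.17, 3.28 and 3.20, a log2 fold change of 0.34 (95% interval 0.16 to 0.53, adjusted p = 0.00757). In both of these genes the adapted samples were tight and the gap between the groups was small, and 22.6% and 24.9% of tested rows rose by more than TYRO3 and MERTK did. In GENCODE v29, AXL lies on chromosome 19 from 41219203 to 41261766, TYRO3 on chromosome 15 from 41557675 to 41583586 and MERTK on chromosome 2 from 111898479 to 112029561, all on the plus strand.

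MERTK remained the most abundant TAM receptor. Its share of the summed FPKM of the 3 receptors was 72.5%, 70.4% and 71.1% in parental and 56.8%, 62.7% and 62.5% in adapted samples. The share of AXL was 5.63%, 6.86% and 7.50% and then 24.4%, 14.5% and 16.7%, and that of TYRO3 averaged 22.0% and 20.8%, with overlapping groups. The AXL and MERTK shares each gave an exact permutation p of 0.1, the smallest possible, and 0.117 when adjusted over the 7 receptor shares examined. The family sum went from 8.85 ± 0.647 to 13.6 ± 0.509 FPKM (SD, n = 3 each). Relative to MERTK in the same sample, TYRO3 had a log2 difference of -1.31 ± 0.05 in parental and -1.28 ± 0.05 in adapted cells (exact permutation p = 0.4), whereas AXL went from -2.20 ± 0.14 to -1.41 ± 0.35 (SD, n = 3 each, exact permutation p = 0.1, adjusted over 9 pairs 0.129).

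**Figure D3:**
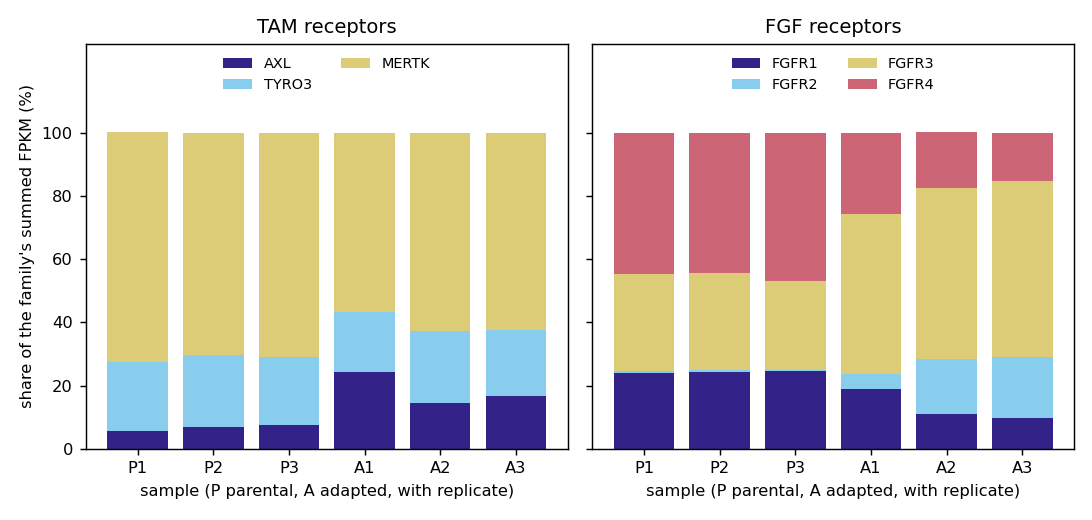
Share of each receptor in the summed FPKM of its family, in percent, for the 3 parental (P1 to P3) and 3 adapted (A1 to A3) samples. The AXL share averages 6.66% in parental and 18.5% in adapted cells, and in the FGF receptors FGFR3 replaces FGFR4 as the largest share in every adapted sample, with FGFR2 at 4.75% in A1 and 17.3% and 19.6% in A2 and A3.

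Of 25 other genes of TAM signaling, 19 passed the filter, 10 rose and 4 fell, where 30.7% of all tested rows rose and 26.2% fell, and their median log2 fold change was 0.27. PROS1 rose most, followed by TNS3, an adaptor at focal adhesions (log2 fold change 0.92, adjusted p = 3.04e-04), and CBLB. GGCX, the carboxylase that vitamin K dependent proteins such as GAS6 and PROS1 need, rose by 0.25 (adjusted p = 0.0107), and VKORC1L1, which recycles vitamin K, by 0.31 (adjusted p = 0.0151). VKORC1, which also recycles it, was not past the threshold (0.27, adjusted p = 0.0743), and its groups overlapped. SOCS1 and SOCS3, the cytokine signal inhibitors that TAM receptors induce in immune cells, were both lower. SOCS1 had a mean of 2.99 ± 0.09 and then 1.70 ± 0.17 (SD, n = 3 each, adjusted p in limma 7.39e-05) and SOCS3 of 5.16 ± 0.02 and then 4.20 ± 0.22 (adjusted p = 3.12e-04). Of the sheddases that cut AXL off the surface, ADAM17 changed by -0.24 (adjusted p = 0.0267) and ADAM10 by 0.12 (adjusted p = 0.165, not past the threshold).

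The 4 FGF receptors did not move together. FGFR3 was 2.53, 2.56 and 2.46 in parental and 3.40, 3.31 and 3.40 in adapted samples. The 2 groups were tight and far apart, and adapted replicate 1 lay among the others. Its log2 fold change was 0.85 (standard error 0.07, 95% interval 0.70 to 1.01, limma, adjusted p = 6.25e-05), a mean of 4.73 ± 0.201 against 9.34 ± 0.343 FPKM (SD, n = 3 each). FGFR4, a receptor best known for its role with FGF19 in the liver, went the other way, from 2.99, 3.01 and 3.08 to 2.54, 1.97 and 1.85. All adapted values were lower, adapted replicate 1 the least so. The log2 fold change was -0.91 (standard error 0.17, 95% interval -1.31 to -0.51, adjusted p = 0.00322). FGFR3 lies on chromosome 4 from 1793293 to 1808872 and FGFR4 on chromosome 5 from 177086886 to 177098144.

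FGFR1 was 2.24, 2.28 and 2.30 in parental and 2.18, 1.50 and 1.40 in adapted samples. Adapted replicate 1 lay just under the lowest parental value, and the other adapted samples were well below it. The log2 fold change was -0.58 (standard error 0.19, 95% interval -1.03 to -0.12, limma, adjusted p = 0.0363). It was -0.82 (adjusted p = 6.41e-05) without adapted replicate 1. The call was lost when any one of the other 5 samples was left out (adjusted p 0.0810 to 0.115) or when no filter was used (0.0784). No other gene of the 10 lost its call when a sample was left out.

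FGFR2 was near the floor in parental cells, at 0.13, 0.17 and 0.10, and reached 0.92, 1.95 and 2.13 in adapted cells. The groups did not overlap, and adapted replicate 1 was far below the other adapted samples. In FPKM this was 0.0944, 0.127 and 0.0748 against 0.893, 2.87 and 3.37, a mean 24.1-fold higher. Because its mean over the 6 samples was under the filter, FGFR2 was tested only in the fit without a filter, where its difference of 1.53 had an adjusted p of 0.011 (limma, standard error 0.31, 95% interval 0.77 to 2.29). In that fit, 36.6% of 23902 rows were past the threshold. FGFR2, on chromosome 10 from 121478334 to 121598458, has 27 annotated transcripts in GENCODE v29, and the matrix has 1 value per gene, so the epithelial and mesenchymal forms of the receptor were not separated.

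The sum of the 4 FGF receptors averaged 15.8 ± 0.262 FPKM in parental and 17.5 ± 1.15 FPKM in adapted cells (SD, n = 3 each, exact permutation p = 0.1), and its makeup differed more. FGFR4 held 44.7%, 44.2% and 46.8% of it in parental and 25.6%, 17.7% and 15.3% in adapted samples. FGFR3 held 30.6%, 30.7% and 28.2% and then 50.8%, 54.0% and 55.5%. FGFR1 averaged 24.2% and 13.1%, and FGFR2 0.623% and 13.9%. Each of these 4 shares had groups that did not overlap, with an exact permutation p of 0.1 (0.117 adjusted over 7 shares). The log2 difference between FGFR3 and FGFR4 within a sample went from -0.51 ± 0.09 to 1.25 ± 0.35 (SD, n = 3 each, exact permutation p = 0.1, adjusted over 9 pairs 0.129), so that the 2 receptors changed places in all 3 adapted samples.

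FGF2 was 2.07, 1.99 and 1.97 in parental and 3.03, 2.22 and 2.06 in adapted samples. The groups overlapped at the second decimal, and most of the difference in means came from adapted replicate 1. The log2 fold change was 0.43 (standard error 0.23, 95% interval -0.12 to 0.98, limma, adjusted p = 0.15), and 0.14 (adjusted p = 0.17) without that sample. The FGF2 gene, on chromosome 4 from 122826708 to 122898236, shares 11.9% of its annotated exonic bases with NUDT6, a gene on the opposite strand. NUDT6 was 1.89, 1.78 and 1.95 in parental and 2.36, 1.35 and 1.28 in adapted samples, so it was also highest in adapted replicate 1, and without strand the reads of the shared part cannot be told apart.

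Of the 21 other FGF ligands, 7 were listed at 0 in all samples and 2 passed the filter. Both of these, FGF13 (log2 fold change 0.69, adjusted p = 0.0169) and FGF11 (0.72, adjusted p = 0.00358), rose, where 30.7% of all tested rows rose. Both belong to the intracellular FGF homologous factors, which are not secreted. FGF1, a secreted ligand of all 4 receptors, was below the filter, with 0.08, 0.07 and 0.10 in parental and 1.01, 0.69 and 0.78 in adapted samples (adjusted p = 0.0014 in limma without a filter). Of others below it, FGF18 averaged 0.03 in parental and 0.16 in adapted samples (0.0107 in that fit). FGF21 was 0.16, 0.09 and 0.18 and then 0.00 throughout (0.0129), and FGF19 averaged 0.16 and then 0.01 (0.0918, not past the threshold).

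Of 50 partners of the FGF receptors, 35 passed the filter, 14 rose and 12 fell (30.7% and 26.2% over all tested rows), with a median log2 fold change of 0.12. GPC1, a heparan sulfate proteoglycan, was 2.73, 2.70 and 2.64 and then 4.92, 5.26 and 5.51 (log2 fold change 2.54, adjusted p = 1.35e-05). NDST1, which sulfates heparan sulfate chains, rose by 2.12 (adjusted p = 3.68e-06). ANOS1, a secreted protein that binds FGFR1 and heparan sulfate, was 0.61, 0.80 and 0.66 and then 2.84, 4.57 and 4.32 (log2 fold change 3.22, adjusted p = 5.08e-04), with adapted replicate 1 the lowest of its group, and it passed the filter only through its adapted values. The other tested enzymes of heparan sulfate went both ways. HS6ST1 rose by 1.13 (adjusted p = 6.32e-05) and HPSE, which cuts the chains, by 0.46 (adjusted p = 0.0158), whereas HS3ST1 fell by 0.86 (adjusted p = 5.98e-04), HS2ST1 by 0.40 (adjusted p = 0.00302) and HS6ST2 by 0.33 (adjusted p = 0.0128). EXT1, EXT2 and NDST2 were not past the threshold, at 0.15, -0.15 and 0.33. FGFBP1, which releases FGF2 from heparan sulfate, went from 2.78 ± 0.11 to 0.80 ± 0.13 (SD, n = 3 each), with a log2 fold change at -1.98 (adjusted p = 1.03e-05). The feedback inhibitors DUSP6 and SPRY4, which ERK signaling induces, had log2 fold changes of -3.01 (adjusted p = 3.17e-06) and -1.62 (adjusted p = 2.12e-05). The other feedback inhibitors on the list did not all follow. SPRED2 (-1.13, adjusted p = 1.06e-04), SPRED1 (-1.02, 0.00164) and SPRY1 (-0.97, 0.00723) fell. SPRY2 was not past the threshold (0.12, adjusted p = 0.286), and IL17RD rose by 0.46 (adjusted p = 0.0111). Of the proteins that act downstream of the receptors, FRS2 rose by 0.33 (adjusted p = 0.00651), SOS1 by 0.51 (adjusted p = 0.00139) and PLCG1, a phospholipase C, by 1.30 (adjusted p = 1.52e-05). FRS3 fell by 0.34 (adjusted p = 0.0146), GRB14 by 0.47 (adjusted p = 0.00199) and GAB1 by 0.76, and GRB2, PTPN11 and SHB were not past the threshold, at 0.06, -0.14 and 0.01.

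**Figure D4:**
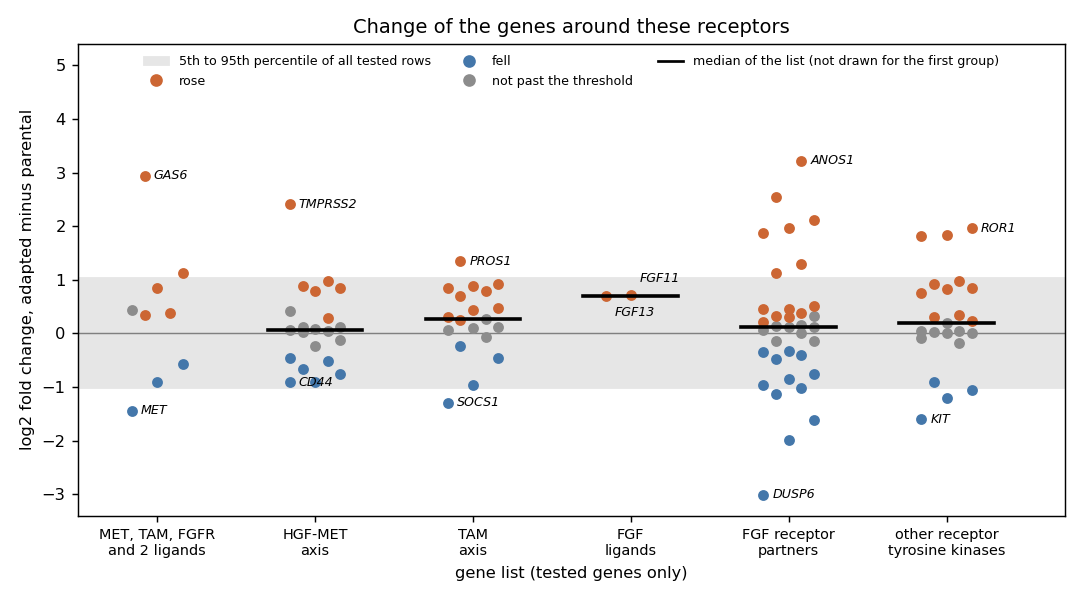
Log2 fold change, adapted minus parental, of the tested genes of each list, with genes that rose in orange, genes that fell in blue, the others in grey and a black line at the median of each list but the first. The grey band runs from the 5th to the 95th percentile of all tested rows (-1.02 to 1.03), and each list has genes on both sides of 0 except the FGF ligands, of which 2 were tested.

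The 50 other receptor tyrosine kinases on the list served as a frame for these 8 receptors. Of the 23 that passed the filter, 11 rose and 4 fell, beside 30.7% and 26.2% of all tested rows, with a median log2 fold change of 0.19. ROR1, a WNT5A receptor, rose most, with 2.33, 2.20 and 2.29 in parental and 4.36, 4.20 and 4.12 in adapted samples (log2 fold change 1.96, adjusted p = 4.78e-06). It was followed by the ephrin receptors EPHA7 (1.84, adjusted p = 0.00217) and EPHA4 (1.81, adjusted p = 2.24e-05), both of which passed the filter only through their adapted values. EPHA7 was 1.41, 2.78 and 2.45 in adapted cells, lowest in replicate 1. Next came ROS1 (0.98, adjusted p = 6.29e-04) and ERBB2 (0.93, adjusted p = 4.58e-04). The 4 that fell were KIT, EPHA2, STYK1 and MST1R. KIT, the stem cell factor receptor, was 3.03, 3.02 and 3.05 and then 2.37, 1.06 and 0.88, a log2 fold change of -1.60 (adjusted p = 0.00694), again with adapted replicate 1 nearest to the parental values. The fall of MET, at -1.44, lay between those of KIT and EPHA2 (-1.21, adjusted p = 2.77e-04).

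**Figure D5:**
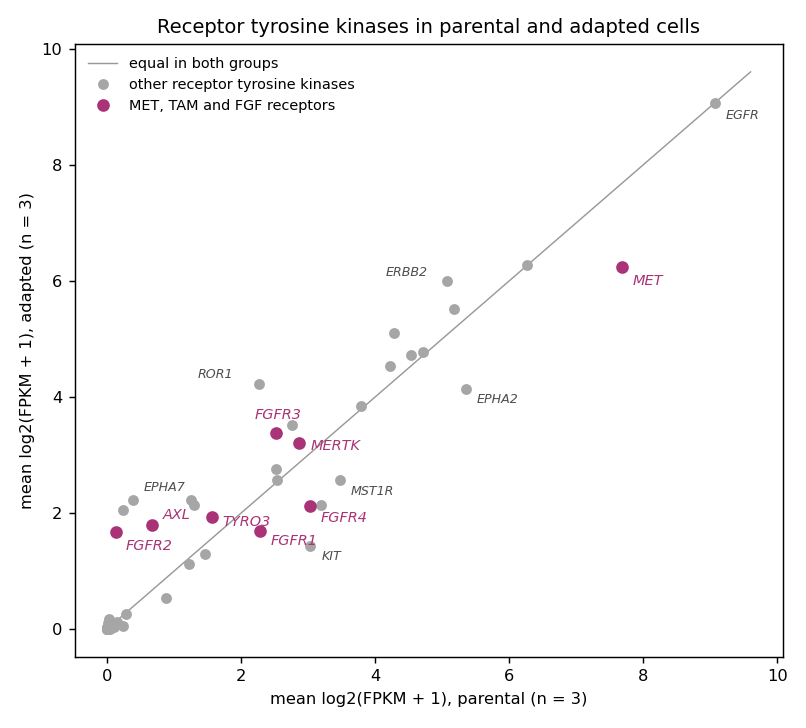
Mean log2(FPKM + 1) of 58 receptor tyrosine kinases in parental (x axis) and adapted cells (y axis), 3 samples each, with the 8 receptors in purple and a line where both groups are equal. MET, EPHA2, MST1R and KIT lie below the line, EGFR lies on it at 9.06 and 9.07, and AXL, FGFR2 and FGFR3 lie above it.

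In FPKM, the parental order of the 10 genes was MET, FGFR4, MERTK, FGFR3, FGFR1, FGF2, TYRO3, GAS6, AXL and FGFR2, and only GAS6 and AXL, which were neighbours at 0.822 and 0.586, had ranges that overlapped. The adapted order was MET, GAS6, FGFR3, MERTK, FGF2, FGFR4, TYRO3, AXL, FGFR2 and FGFR1. The first 4 of these, at 75.6, 13.3, 9.34 and 8.27, did not overlap with their neighbours, and from FGF2 (4.68) down to FGFR1 (2.34) each range overlapped the next. The genes whose 6 values, centred on the parental mean, were most like those of GAS6 among 11706 other named rows were NEXN, RFLNB and CTGF, at root mean square distances of 0.18, 0.19 and 0.19 over the 6 samples. For MET they were HIF1A, MELK and GFPT2, at 0.06, 0.07 and 0.07.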

How the data were processed

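RNA of 3 parental and 3 adapted H1975 samples was sequenced, and the authors deposited 1 matrix of log2 values with 1 column per sample and 27216 rows. The columns were matched to samples by arm and replicate number, and no other columns were present. The unit is not named in the sources used here. The log2 and the added 1 were read from the values, because 2 to the power of a value, minus 1, ends at 6 decimals throughout 27069 rows. This does not tell FPKM from another unit, so FPKM was assumed. A further 147 rows left this grid in 1 group and returned to it with a constant subtracted. None of the 10 genes or the genes on the lists is among them. Per the labels, the processing notes list STAR, Bowtie2 2.1.0, edgeR and the hg38 build, with no roles. The quantifier and annotation are not given in the sources used here. Low values showed no steps of single reads (the commonest ratio between 2 samples held 0.321% of 2496 low rows), so depth is unknown and errors come from replicates alone. The linear values summed to 375342 to 387753 per sample.

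Values were used as deposited. The authors' methods name DESeq2, which needs counts, so limma 3.58.1 in R 4.3.3 was used (lmFit, then eBayes with trend, no pairing). P-values were adjusted by Benjamini-Hochberg over all 12656 rows with a mean of at least 1 and a threshold of 0.05. The fit was tested on simulated data with known changes and the same spread in both groups. The adapted samples here spread more than the parental ones, so that test cannot show how the fit does on such data. Exact permutation tests were two-sided (SciPy 1.17.1). Within-sample pairs of receptors were added after the values were seen. The genes and lists were chosen with earlier results of these data known, so no p-value was adjusted over a list alone and no set test was run. All 10 genes were named, with MST1R, HGF, PROS1 and EGFR, up to 3 genes that rose and 3 that fell most in each list (5 and 5 for receptor tyrosine kinases) and the nearest profiles of the 2 genes that changed most. Others named for their role (DDR1, CBL, PLAU, ST14, TMPRSS13, HPN, SPINT1, SPINT2, GGCX, VKORC1, VKORC1L1, ADAM10, ADAM17, other heparan sulfate enzymes, other feedback inhibitors, proteins that act downstream of the FGF receptors, FGF1, FGF18, FGF19, FGF21, NUDT6 and cell type markers) were chosen after their values were seen. Older symbols were matched through gene name tables. Promoters came from RefSeq, and a planned comparison of protein sequences was not run.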

Additional observations from a re-analysis of the deposited data

How the results depend on the processing

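Calls across rows were recomputed without a filter, with a stricter one (mean 3 or more), with a pseudocount of 0.1, after quantile normalization, after scaling to equal sums with and without mitochondrially encoded genes or centring on the median, with other eBayes settings, a block for the replicate number, omission of each sample, omission or correction of the rows off the 6-decimal grid, and omission of rows with no gene symbol. The receptor shares were recomputed only with the pseudocount and without each sample, the list counts without the pseudocount change, the motif counts only in 250 bases before the start, and the family sums and receptor pairs not at all. Count-based tools could not be used on log2 values. None of the 10 genes changed direction under the alternatives run for it, which for FGFR2 were those without a filter or without a sample and which included the stricter filter only for MET and MERTK. The only gene of the 10 to lose its call in a fit that tested it was FGFR1, without the filter or without any one of 5 samples. With the stricter filter, which tests fewer rows, 4532 rows were past the threshold in place of 7202, 1 of the 10 genes rose (MERTK) and 1 fell (MET), and 14 FGF receptor partners and 8 other receptor tyrosine kinases were past it in place of 26 and 15. The count of FGF ligands was 1 with the stricter filter, 5 with no filter and 1 to 2 when a sample was left out (1 without parental replicate 1, adapted replicate 2 or adapted replicate 3). Leaving out 1 sample gave 5763 to 8370 rows, 5 of the 10 genes that rose and 2 to 3 that fell. Samples with the same replicate number did not deviate together (correlations of -0.0509 to -0.0203 across rows), and with the replicate block 6761 rows, 5 of the 10 genes that rose and 3 that fell were past the threshold. The median of all tested rows moved from 0.028 to at most 0.070 under the scalings tried. Without adapted replicate 1, the log2 fold change was -1.62 for MET, -1.11 for FGFR4 and 0.14 for FGF2. The cause of these shifts was not tested. Depth is unknown, so for low genes such as FGFR2, HGF, FGF1, FGF18, FGF19 and FGF21 counting error could not be given.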
